A study of Homo sapiens with 12 samples.

Results

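The 8 genes described here encode transcription factors of the noradrenergic core regulatory circuit of neuroblastoma: PHOX2A, HAND2, GATA2, GATA3, ISL1, TBX2, TFAP2B and INSM1. They were taken by name from the 19923 protein-coding genes counted in each library, and 8 of 8 were found. Polyadenylated RNA was sequenced from SK-N-BE2 and NGP, both established human neuroblastoma lines with amplified MYCN and a genotype given as WT. Cells were kept for 6 days with STM2457, an inhibitor of the m6A RNA methyltransferase METTL3, or with DMSO, its solvent control. The dose was 12 µM in SK-N-BE2 and 1 µM in NGP, with 3 replicates in each of 4 groups and 12 libraries altogether. Each line is a single model of the disease, and the labels do not say that replicates were separate cultures, so p-values measure the spread between these samples, which may be technical. Dose changed with the line, and so did a grouping named in the count headers, taken here as the sequencing run. The labels do not state the run. The separate effects of line, dose and this grouping cannot be told apart.

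Neuroblastoma arises from sympathoadrenal cells of the neural crest. Its noradrenergic state is held by a small set of transcription factors that bind their own and each other's enhancers together with MYCN, and that switch on the genes of catecholamine synthesis. A separate mesenchymal state uses other factors, such as PRRX1, SNAI2 and AP-1 proteins. PHOX2A and ISL1 are homeodomain proteins, HAND2 is a basic helix-loop-helix (bHLH) protein, GATA2 and GATA3 are zinc-finger proteins that bind GATA motifs, TBX2 is a T-box repressor, TFAP2B is an AP-2 factor and INSM1 is a zinc-finger repressor of neuroendocrine precursors.

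Sequences upstream of 4 of the factors are shown, since these proteins regulate one another through sequence motifs. The promoters of HAND2 and ISL1 were picked because they hold GATA motifs, so their matches do not describe all the factors. Those of TFAP2B and GATA2 were picked because the responses of these factors to STM2457 differed between the lines. Each sequence is the 250 bases before a start site of the RefSeq promoter table (GRCh38.p14), read 5′ to 3′ on the gene's own strand. Capitals mark matches to GATAA on either strand (the GATA core, seen as TTATC on the other), CANNTG (the E-box of bHLH proteins), GCCNNNGGC (an AP-2 motif) and TAATTA (a homeodomain motif).
HAND2 (chr4:173530230-173530479, minus strand): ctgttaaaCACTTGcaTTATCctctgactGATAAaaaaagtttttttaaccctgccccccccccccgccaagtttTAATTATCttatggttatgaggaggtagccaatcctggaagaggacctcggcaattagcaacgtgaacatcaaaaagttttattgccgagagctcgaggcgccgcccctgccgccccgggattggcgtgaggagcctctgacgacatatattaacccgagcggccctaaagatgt
ISL1 (chr5:51383198-51383447, plus strand): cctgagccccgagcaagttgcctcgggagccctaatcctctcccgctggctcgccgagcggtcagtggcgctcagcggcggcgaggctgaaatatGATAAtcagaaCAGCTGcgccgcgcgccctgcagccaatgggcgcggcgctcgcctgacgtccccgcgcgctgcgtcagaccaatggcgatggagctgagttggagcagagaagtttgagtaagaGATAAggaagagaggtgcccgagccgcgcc
TFAP2B (chr6:50818621-50818870, plus strand): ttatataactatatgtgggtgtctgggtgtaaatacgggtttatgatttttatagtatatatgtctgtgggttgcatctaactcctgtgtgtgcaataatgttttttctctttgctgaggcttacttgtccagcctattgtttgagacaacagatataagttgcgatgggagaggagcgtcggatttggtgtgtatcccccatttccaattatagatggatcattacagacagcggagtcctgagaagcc
GATA2, 1 of 2 start sites (chr3:128493202-128493451, minus strand): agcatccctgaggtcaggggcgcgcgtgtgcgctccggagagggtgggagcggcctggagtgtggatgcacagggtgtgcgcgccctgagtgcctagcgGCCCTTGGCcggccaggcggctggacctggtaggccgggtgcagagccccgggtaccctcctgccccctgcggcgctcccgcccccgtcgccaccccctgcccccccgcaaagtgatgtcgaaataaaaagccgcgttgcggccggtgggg
The HAND2 window held 3 matches to GATAA, 1 to CANNTG and 1 to TAATTA, the last overlapping a GATAA match. The ISL1 window held 2 matches to GATAA and 1 to CANNTG. TFAP2B had none of the 4 motifs in this window, and the GATA2 window had 1 match to GCCNNNGGC. The TFAP2B window is not wholly upstream of the gene as counted, which starts at 50818723. The window of the other GATA2 start site, not shown, held 3 matches to CANNTG and 2 to GCCNNNGGC. The PHOX2A window, also not shown, held none of the 4 motifs. It lies inside the gene as counted, as does the window of the other GATA2 start site. GATAA occurred in the GATA3 window at chr10:8060207-8060456 and in no other GATA3 window. No start site was listed for INSM1 or TBX2. Over 35116 promoter windows of the same length, 20.4% held GATAA, 61.8% CANNTG, 19.8% GCCNNNGGC and 4.35% TAATTA. A match describes the letters and is not a measured binding site.

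Depth ran from 47242379 to 58159937 counted reads per library, so sampling error was small for each factor except INSM1 in SK-N-BE2. The smallest sum over a group was 512 reads, for INSM1 in SK-N-BE2 with STM2457. Single libraries of that group held 152 to 199 reads of INSM1, and both reads of a pair can be counted. Marker genes of noradrenergic neuroblastoma were read in both lines. MYCN averaged 4434 CPM (reads per 1e6 counted, scaled by the TMM method) in SK-N-BE2 and 3970.0 CPM in NGP with DMSO. TH, the first enzyme of catecholamine synthesis, stood at 234 CPM in SK-N-BE2 and 0.512 CPM in NGP with DMSO. DDC (202 and 39.3 CPM), CHGA (2039 and 466 CPM) and CHGB (2147 and 356 CPM) were also higher in SK-N-BE2 with DMSO. DBH went the other way, at 35.3 CPM in SK-N-BE2 and 172 CPM in NGP. Summed Schwann cell precursor markers (6 genes) lay between 0.868 and 5.80 CPM in the 12 libraries and summed endothelial and immune markers (6 genes) between 5.61 and 15.4 CPM. In the latter sum, CD68 averaged 3.84 CPM in SK-N-BE2 and 6.22 CPM in NGP with DMSO, with 85.6% of its exon length shared with other genes. CDH5 averaged 6.43 CPM in SK-N-BE2 with DMSO. CDH19 had no read in SK-N-BE2, and PECAM1, PTPRC and CD3E had none in NGP. In bulk RNA, fewer cells of a type and less RNA per cell cannot be told apart.

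The factors were compared with one another in TPM (reads divided by exon length and scaled to a common total), since only values per length can be set side by side between genes. HAND2 had the highest mean in each of the 4 groups, from 668 ± 49.1 TPM in SK-N-BE2 with STM2457 to 812 ± 150.3 TPM in NGP with STM2457 (SD, n = 3). In SK-N-BE2 with DMSO it was followed by PHOX2A at 502 ± 111 TPM, whose libraries overlapped those of HAND2. GATA2 and GATA3 came next at 244 and 239.9 TPM and overlapped each other. TFAP2B at 93.0 TPM, ISL1 at 46.7, TBX2 at 26.3 and INSM1 at 6.55 TPM each lay apart from the factor above.

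In NGP with DMSO the order was different. GATA3 was second at 431 ± 18.2 TPM, and PHOX2A (403 ± 58.7) and INSM1 (365 ± 40.2) followed, each overlapping its neighbour above. ISL1 at 191, GATA2 at 111, TBX2 at 77.1 and TFAP2B at 38.6 TPM each lay apart from the factor above. INSM1 was therefore the lowest of the 8 in SK-N-BE2 and among the higher ones in NGP. Among the STM2457 libraries, TFAP2B in SK-N-BE2 stood at 238 ± 12.7 TPM and overlapped GATA3 (259.7 ± 14.6), and INSM1 in NGP stood below ISL1 at 107 ± 23.8 TPM, overlapping TBX2 (83.0 ± 15.8). TPM and CPM are scaled by different totals and can move apart between groups, as for ISL1 in NGP (191 and 181 TPM, 131 and 144 CPM with DMSO and STM2457). TPM is therefore read for the order within a group, and responses are tested on the counts and given as CPM.

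**Figure D1:**
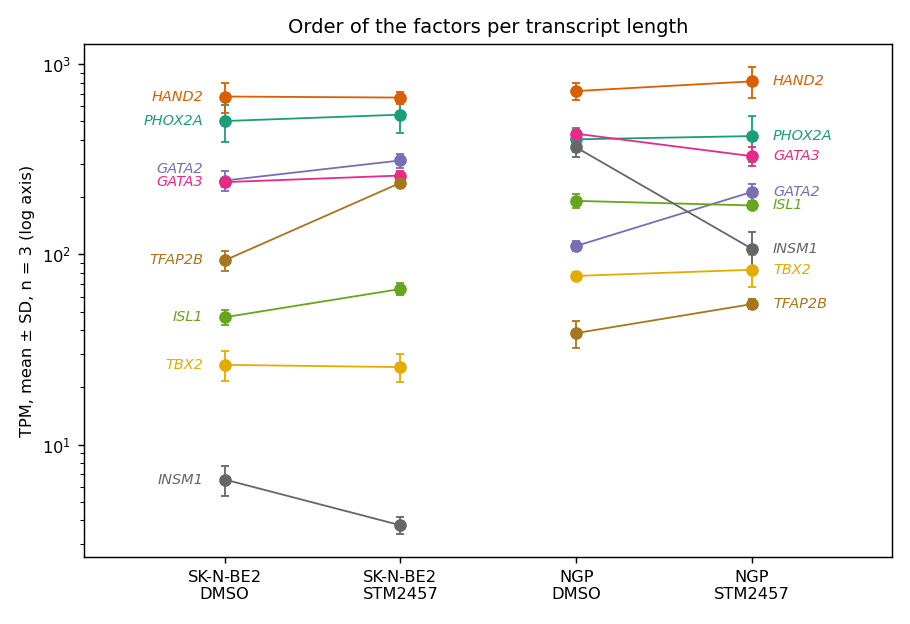
Mean TPM of the 8 factors in each group on a log axis, with bars for the SD of 3 libraries and lines joining DMSO to STM2457 within a line. HAND2 is at the top in each group, and INSM1 lies at 6.55 TPM in SK-N-BE2 and 365 TPM in NGP with DMSO.

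With DMSO, 7 of the 8 factors differed between the lines at an adjusted p under 0.05 in edgeR's quasi-likelihood test, 3 higher and 4 lower in SK-N-BE2. The lines differed widely elsewhere: 71.1% of 14731 genes tested passed the same threshold, 35.7% higher and 35.4% lower in SK-N-BE2. The median log2 difference was -0.05 over the 8 factors and 0.00 over all genes tested. INSM1, TFAP2B, ISL1 and GATA2 had the largest differences of the 8: SK-N-BE2 had more TFAP2B and GATA2 and less INSM1 and ISL1 than NGP.

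STM2457 changed 3 of the 8 factors in SK-N-BE2, where TFAP2B and ISL1 rose and INSM1 fell, beside 54.7% of 14013 genes tested (26.9% higher, 27.8% lower). In NGP it changed 3 of the 8, where GATA2 and TFAP2B rose and INSM1 fell, beside 41.7% of 13610 genes (19.4% higher, 22.2% lower). The count of 3 in each line is not above these background shares. Over the 8 factors the median log2 fold change was -0.04 for SK-N-BE2 and 0.26 for NGP, beside -0.02 and -0.03 over all genes tested. The response differed between the lines for 2 of the 8, GATA2 (lower in SK-N-BE2) and TFAP2B (higher), beside 30.9% of 14731 genes (17.0% higher, 13.9% lower). Each line's response shares its DMSO libraries with the line comparison and with the difference between responses.

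**Figure D2:**
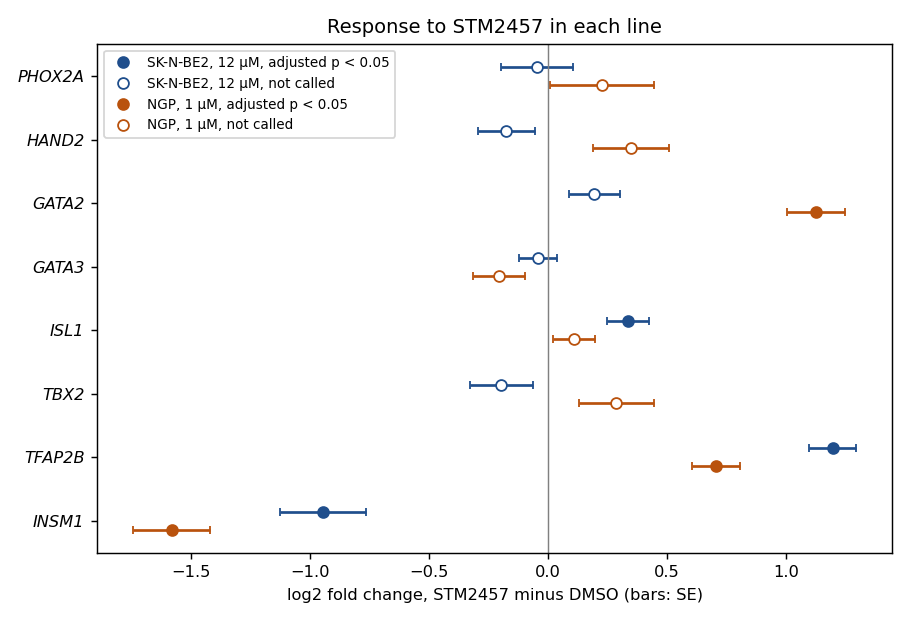
Log2 fold change of each factor with STM2457 against DMSO in SK-N-BE2 (blue) and NGP (orange), with bars for the SE of edgeR's fit and filled points for an adjusted p under 0.05. TFAP2B is filled to the right and INSM1 to the left of 0 in both lines, while GATA2 is filled in NGP at 1.13 and open in SK-N-BE2 at 0.20.

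TFAP2B (chromosome 6, 50818723 to 50847619, plus strand, GRCh38) encodes an AP-2 factor of sympathetic neuron differentiation. In SK-N-BE2 it measured 207, 160.2 and 196 CPM in the DMSO libraries and 458, 427 and 438 CPM with STM2457. In NGP the values were 53.1, 58.0 and 60.5 CPM with DMSO and 91.6, 102 and 91.8 CPM with STM2457. In both lines each treated library lay above every control library, and the lines themselves did not overlap. The log2 fold change was 1.20 in SK-N-BE2 (standard error, SE, 0.10; edgeR adjusted p 5.18e-07), a 2.29-fold rise. In NGP it was 0.71 (SE 0.10, edgeR adjusted p 0.000909), a 1.63-fold rise. The rise in SK-N-BE2 exceeded that in NGP by 0.50 (SE 0.14, edgeR adjusted p 0.0144), at a dose that was also higher. With DMSO the line difference was already 1.71 on the log2 scale (SE 0.10, edgeR adjusted p 1.81e-09), and the ratio of SK-N-BE2 to NGP went from 3.28 with DMSO to 4.64 with STM2457.

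INSM1 (chromosome 20, 20368104 to 20370949, plus strand) is a gene with 1 exon whose zinc-finger protein represses transcription in neuroendocrine precursors and sympathoadrenal cells. In SK-N-BE2 it measured 4.89, 6.36 and 7.04 CPM with DMSO and 2.97, 2.97 and 3.79 CPM with STM2457. In NGP it measured 261, 224 and 273 CPM with DMSO and 78.4, 107 and 71.6 CPM with STM2457. Treated libraries lay below all controls in both lines, and the lines stood far apart in both conditions. The gene fell by 0.95 on the log2 scale for SK-N-BE2 (SE of 0.18, edgeR adjusted p 0.000632). In NGP it fell by 1.58 (SE 0.16, edgeR adjusted p 0.000156), to a level 2.99-fold lower. The difference between these responses was 0.65 (SE 0.24) and missed the threshold (edgeR adjusted p 0.0536). INSM1 had the largest line difference of the 8, at -5.37 for SK-N-BE2 minus NGP with DMSO (SE 0.19, edgeR adjusted p 9.21e-12), which is 41.5-fold. Its ratio of NGP to SK-N-BE2 was 26.5 with STM2457.

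GATA2 (chromosome 3, 128479427 to 128493201, minus strand) encodes a GATA factor of sympathetic and haematopoietic precursors. In SK-N-BE2 it measured 371, 306 and 398 CPM with DMSO and 455, 382 and 425 CPM with STM2457, and the groups overlapped. The NGP libraries gave 134, 105 and 124 CPM with DMSO and 256, 300.2 and 249.6 CPM with STM2457, with no overlap. The treated NGP libraries lay below all SK-N-BE2 libraries. The log2 fold change was 1.13 in NGP (SE 0.12, edgeR adjusted p 0.000219), a rise of 2.18-fold, and 0.20 for SK-N-BE2 (SE of 0.11, edgeR adjusted p 0.134). Set against NGP, the SK-N-BE2 response was -0.92 on the log2 scale (SE 0.17, edgeR adjusted p 0.00117). With DMSO, GATA2 was 2.96-fold higher in SK-N-BE2 (log2 difference 1.57, SE 0.12, edgeR adjusted p 4.16e-08), and with STM2457 the ratio was 1.57.

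GATA3 (chromosome 10, 8045378 to 8075198, plus strand), the GATA factor required for sympathetic neurons and noradrenaline synthesis, was not called for a response to STM2457 in either line. In SK-N-BE2 it measured 251, 270.3 and 278 CPM with DMSO and 271, 265 and 261 CPM with STM2457. In NGP the values were 386, 341 and 341 CPM with DMSO and 291, 354 and 298 CPM with STM2457. Treated and control libraries overlapped in both lines. Its log2 fold changes were -0.04 for SK-N-BE2 (SE of 0.08, edgeR adjusted p 0.687) and -0.21 in NGP (SE 0.11, edgeR adjusted p 0.165). With DMSO it was lower in SK-N-BE2 than in NGP by a log2 difference of -0.42 (SE 0.09, edgeR adjusted p 0.00100), against the direction of GATA2.

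ISL1 (chromosome 5, 51383448 to 51394730, plus strand), a LIM-homeodomain factor of sympathetic neuron specification, measured 39.9, 46.4 and 42.8 CPM in SK-N-BE2 with DMSO and 55.0, 58.0 and 54.4 CPM with STM2457. In NGP it measured 135, 125 and 132 CPM with DMSO and 139, 150.3 and 141 CPM with STM2457. Treated libraries were above all controls in both lines, but by a small margin in NGP. The log2 fold change was 0.34 for SK-N-BE2 (SE of 0.09, edgeR adjusted p 0.00518), a rise of 1.26-fold, and 0.11 in NGP (SE 0.09, edgeR adjusted p 0.344). The difference between the responses was 0.24 (SE 0.12) and was not called (edgeR adjusted p 0.133), so the responses were not shown to differ. With DMSO the gene was 3.04-fold higher in NGP (log2 difference -1.60 for SK-N-BE2 minus NGP, SE 0.08, edgeR adjusted p 4.52e-10).

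PHOX2A (chromosome 11, 72239077 to 72245664, minus strand) encodes a paired-like homeodomain activator of the dopamine beta-hydroxylase gene. In SK-N-BE2 it measured 270.2, 241 and 369.9 CPM with DMSO and 354, 249 and 272 CPM with STM2457. The NGP libraries gave 221, 134 and 175 CPM with DMSO and 189.9, 274 and 168 CPM with STM2457. Treated and control libraries overlapped in both lines, and within each group the highest library was 1.42 to 1.65 times the lowest. The log2 fold change was -0.05 for SK-N-BE2 (SE of 0.15, edgeR adjusted p 0.811) and 0.23 in NGP (SE 0.22, edgeR adjusted p 0.438). With DMSO it was 1.66-fold higher in SK-N-BE2 (log2 difference 0.73, SE 0.22, edgeR adjusted p 0.00805). PHOX2A is the most GC-rich of the 8, with 66.1% GC in its exons against a median of 48.7% over all genes.

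HAND2 (chromosome 4, 173524969 to 173530229, minus strand) encodes a bHLH factor needed for the noradrenergic phenotype of sympathetic neurons. In SK-N-BE2 it measured 681, 749 and 959.5 CPM with DMSO and 774, 684 and 716 CPM with STM2457. In NGP the values were 712, 522 and 673 CPM with DMSO and 756, 999 and 718 CPM with STM2457. The SK-N-BE2 groups overlapped, whereas the treated NGP libraries lay just above all NGP controls. The log2 fold change was -0.17 for SK-N-BE2 (SE of 0.12, edgeR adjusted p 0.232) and 0.35 in NGP (SE 0.16, edgeR adjusted p 0.112). The line difference with DMSO was 0.33 (SE 0.15, edgeR adjusted p 0.0727), and HAND2 was the 1 factor of the 8 for which it was not called. These values are uncertain, because reads were counted without regard to strand and 24.1% of the exon length of HAND2 is shared with HAND2-AS1, a noncoding gene on the other strand.

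TBX2 (chromosome 17, 61399843 to 61409466, plus strand), a T-box repressor linked to proliferation, measured 46.1, 47.1 and 63.6 CPM in SK-N-BE2 with DMSO and 55.0, 40.8 and 44.6 CPM with STM2457. In NGP it measured 133, 99.0 and 112 CPM with DMSO and 138, 171 and 117 CPM with STM2457. Treated and control libraries overlapped in both lines, while the lines did not. The log2 fold change was -0.20 for SK-N-BE2 (SE of 0.13, edgeR adjusted p 0.231) and 0.29 in NGP (SE 0.16, edgeR adjusted p 0.181). With DMSO it was 2.19-fold higher in NGP (log2 difference -1.13 for SK-N-BE2 minus NGP, SE 0.17, edgeR adjusted p 3.01e-05).

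**Figure D3:**
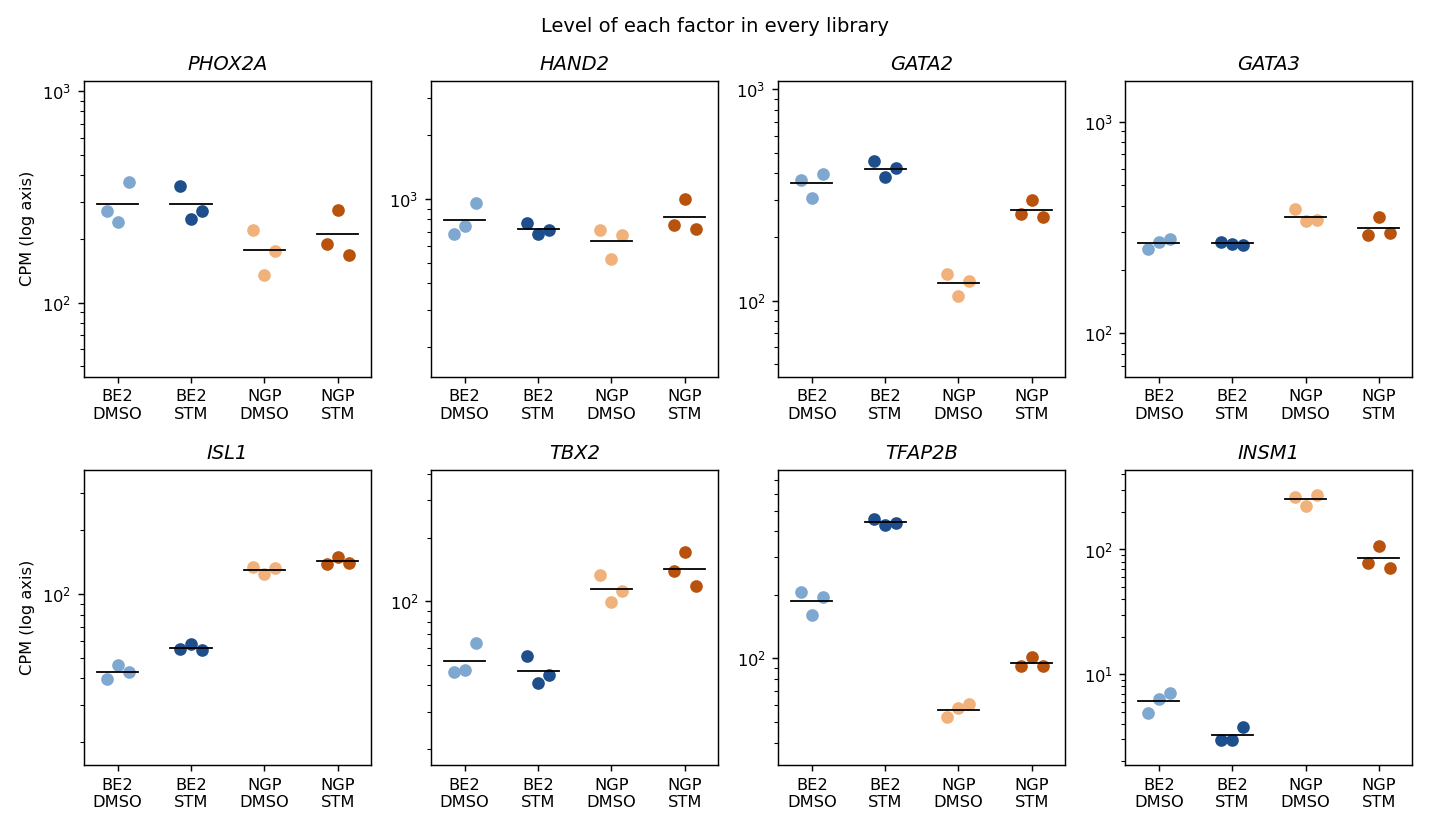
CPM of each factor in every library, on a log axis whose range is set per panel, with points for libraries and lines for the mean of 3. TFAP2B, INSM1 and ISL1 separate treated from control libraries in both lines, ISL1 by a small margin in NGP. The points of PHOX2A, GATA3 and TBX2 overlap.

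In NGP the calls of GATA2, TFAP2B and INSM1 held under all 15 alternatives, and further factors were called under 2 of them. NGP DMSO replicate 1 carried more reads from GC-rich genes than the others, with a slope of 0.251 log2 units per 10 percentage points of exon GC, against -0.12 to 0.13 in the other 11 libraries. PHOX2A, TBX2 (62.2% GC), GATA2 (61.0%), HAND2 (56.9%), GATA3 (55.0%) and ISL1 (45.2%) were higher in it than in the other NGP controls, and INSM1 (63.2%) and TFAP2B (48.3%) were not. Without this library, 5 of the 8 were called in NGP: HAND2 (log2 fold change 0.44, edgeR adjusted p 0.0281) and TBX2 (0.40, edgeR adjusted p 0.0292) joined GATA2, TFAP2B and INSM1. With the GC trend of each library removed, 6 were called, and PHOX2A (0.67, edgeR adjusted p 0.000388), TBX2 (0.48, edgeR adjusted p 0.00297) and HAND2 (0.36, edgeR adjusted p 0.0496) were those added. Either change also moved the count of factors whose response differed between the lines from 2 to 5. Without the library these were GATA2, TFAP2B, HAND2 (-0.62, edgeR adjusted p 0.0230), TBX2 (-0.60, edgeR adjusted p 0.0329) and INSM1 (0.61, edgeR adjusted p 0.0475). With the GC trend removed, PHOX2A (-0.47, edgeR adjusted p 0.00597) took the place of HAND2. In the fits as reported, 41.7% of all genes tested were called for the NGP response and 30.9% for the difference between responses. These shares are not given here for the 2 alternatives, so the larger counts are not read as particular to the factors.

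**Figure D4:**
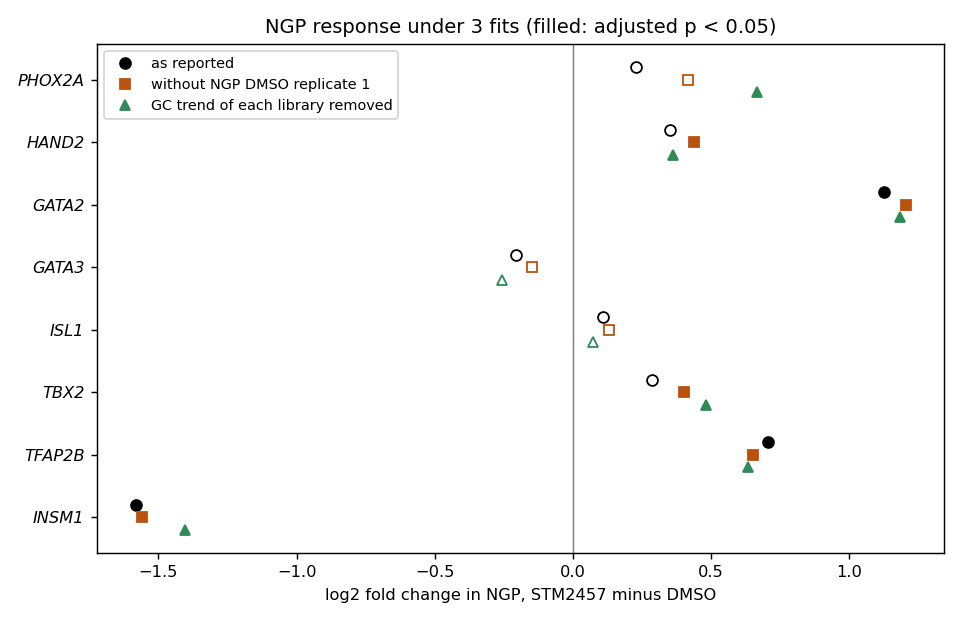
Log2 fold change of each factor with STM2457 in NGP in the fit of 6 libraries as reported (circles), without NGP DMSO replicate 1 (squares) and with GC trends removed (triangles), filled for an edgeR adjusted p under 0.05. GATA2, TFAP2B and INSM1 are filled in each of the 3 fits, and PHOX2A moves from 0.23 to 0.67.

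The sequence GGACT, the commonest form of the METTL3 target motif, was counted on the sense strand of each factor's canonical transcript in GENCODE 44. The median over 19857 transcripts was 0.926 per kilobase. ISL1 (1.25), PHOX2A (1.18), HAND2 (1.08) and GATA3 (0.973) lay above it, and TFAP2B (0.888), GATA2 (0.887), INSM1 (0.351) and TBX2, with none in 3433 bases, lay under it. HAND2 had 2 and GATA3 1 within 200 bases of the stop codon, where 35.9% of all transcripts have at least 1. Methylation of these sites was not measured here.

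For each factor, the genes with the most similar pattern over the 12 libraries were found by the root mean square difference in centred log2 CPM, among 10640 genes. GATA3 was closest to C12orf75 (0.0473) and XPA (0.0720), and HAND2 to PTMA (0.0798) and XAB2 (0.115). GATA2 was closest to LGALS3BP (0.131) and MMP2 (0.148), and ISL1 to SEC13 (0.0818) and SETMAR (0.102). PHOX2A was closest to EMILIN1 (0.135) and HAGH (0.140), and TBX2 to PARD6G (0.163) and COL6A2 (0.169). Of the named neighbours, those of TFAP2B and INSM1 were the most distant: SLC27A3 (0.200) for the first, CNN2 (0.412) and PPP1R14A (0.467) for the second. The 8 themselves were not candidates.

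Other transcription factors and LMO cofactors of the adrenergic state moved in both directions. In SK-N-BE2, 5 of 16 tested were higher and 3 lower with STM2457 (26.9% and 27.8% of all genes), with a median log2 fold change of 0.09. In NGP, 4 of 17 were higher and 3 lower (19.4% and 22.2%), with a median of 0.10. TBX3, the paralog of TBX2, rose by 0.54 in SK-N-BE2 (edgeR adjusted p 0.000178) and by 1.38 in NGP (edgeR adjusted p 3.80e-05), whereas TBX2 was called in neither. HAND1, the paralog of HAND2, fell by 0.83 in SK-N-BE2 (164 to 94.9 CPM, edgeR adjusted p 7.47e-05) and had -0.15 in NGP (edgeR adjusted p 0.372). SIX3 fell in SK-N-BE2 by 0.93, and LMO3 rose there by 3.0 from 0.205 to 1.68 CPM. HEY1, a Notch-responsive repressor, rose in NGP by 1.30.

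Among 16 family paralogs of the 8 factors, 9 were tested in SK-N-BE2, with 1 higher and 7 lower (26.9% and 27.8% of all genes), and 12 in NGP, with 3 higher and 2 lower (19.4% and 22.2%). TFAP2A, TFAP2E, ISL2 and TBX4, among those lower in SK-N-BE2, averaged under 1 CPM in both groups there, as did TFAP2D, lower in NGP, in both NGP groups. HAND1 and TBX3 were also counted among the other adrenergic factors above. INSM2, the paralog of INSM1, fell by 0.61 in SK-N-BE2 (352 to 236 CPM, edgeR adjusted p 0.000866) and, unlike INSM1, was abundant there. ISL2 fell in NGP by 0.93 (22.9 to 12.2 CPM), although 17.9% of its exon length is shared with another gene. GATA5 rose in NGP from 0.131 to 1.89 CPM.

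Partners and inhibitors of these factors included the E proteins that pair with HAND2, the ID proteins that sequester E proteins, the LIM cofactors LDB1 and LDB2, the FOG cofactors of GATA factors, and the corepressors KDM1A, RCOR1, HDAC1 and HDAC2 of INSM1. In each line 8 of 15 were higher and 2 lower with STM2457, with medians of 0.29. Over all genes tested, 26.9% were higher and 27.8% lower in SK-N-BE2, and for NGP the shares were 19.4% and 22.2%. The ID genes were among those that moved most. ID3 rose by 0.77 in SK-N-BE2 (36.6 to 63.9 CPM) and by 2.57 in NGP (14.9 to 89.7 CPM). ID4 rose in SK-N-BE2 by 2.02 (2.98 to 12.4 CPM). ID2 fell in SK-N-BE2 by 0.68 and rose in NGP by 0.84. ID1 fell in SK-N-BE2 by 0.60 (edgeR adjusted p 0.00414) and rose in NGP by 2.03. The response in SK-N-BE2 minus that in NGP was -2.61 for ID1 (edgeR adjusted p 2.71e-05), -1.79 for ID3 (edgeR adjusted p 5.16e-05) and -1.51 for ID2 (edgeR adjusted p 2.38e-05). ID4 went the other way, at 1.30 (edgeR adjusted p 0.00178).

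The list of noradrenergic effector genes holds genes that make, store, take up or break down catecholamines, together with CHGA, CHGB, NPY and RET. In SK-N-BE2, 2 of 13 were higher and 6 lower with STM2457 (median log2 fold change -0.36), beside 26.9% and 27.8% of all genes tested. In NGP, 7 of 13 were higher and 1 lower (median 1.03), beside 19.4% and 22.2%. That median is the value of SLC18A2, which was not called there (0.138 to 0.289 CPM, edgeR adjusted p 0.328). Of the 13, 9 averaged at least 1 CPM in NGP with DMSO, and TH, SLC18A1, SLC18A2 and CYB561 did not. The difference between the responses was called for 6 of 13, each with the lower response in SK-N-BE2, beside 13.9% of all genes lower and 17.0% higher; for the other 7, TH and NPY among them, it was not called. DBH, which converts dopamine to noradrenaline, fell in both lines, by 1.43 in SK-N-BE2 (35.3 to 13.5 CPM) and by 0.33 in NGP (172 to 138 CPM, edgeR adjusted p 0.0427). DDC, the decarboxylase before it, had -0.08 in SK-N-BE2 (edgeR adjusted p 0.442) and rose by 1.19 in NGP (39.3 to 91.2 CPM, edgeR adjusted p 0.000217). CYB561, a cytochrome that regenerates the ascorbate used by DBH, fell by 0.61 in SK-N-BE2 and rose by 2.18 in NGP, there from 0.673 to 3.11 CPM. NPY, a neuropeptide stored with noradrenaline, rose by 1.41 in SK-N-BE2 and by 1.06 in NGP. SLC18A1, a vesicular monoamine transporter, rose in NGP by 1.70, from 0.583 to 1.94 CPM. SLC18A2 fell in SK-N-BE2 by 1.29, from 2.48 to 1.04 CPM, with 56.4% of its exon length shared with other genes. RET, chosen after its values were seen, fell by 1.02 in SK-N-BE2 and rose by 1.03 in NGP. It is included in the counts above: lower in SK-N-BE2, higher in NGP and called for the difference between the responses.

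**Figure D5:**
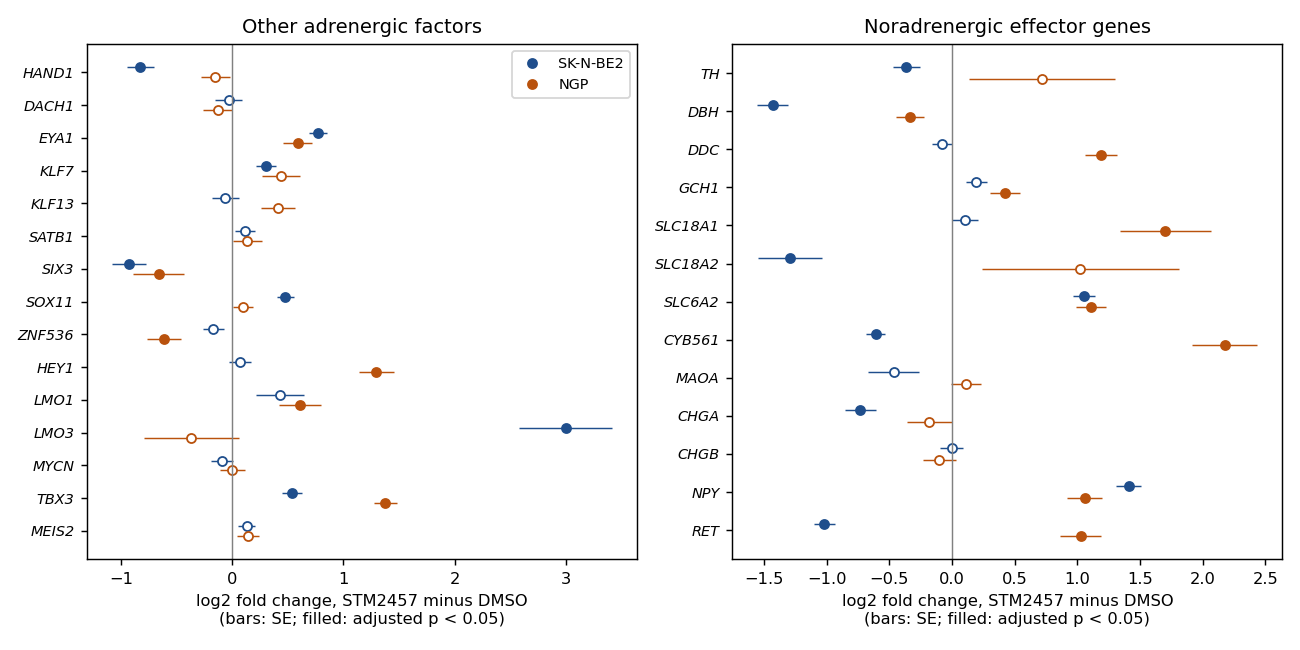
Log2 fold change with STM2457 of other adrenergic factors (left) and the noradrenergic effector genes (right) in SK-N-BE2 (blue) and NGP (orange), with bars for SE and filled points for an edgeR adjusted p under 0.05. RET and CYB561 lie on opposite sides of 0 in the lines, while SIX3 and DBH are left of 0 in both.

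Transcription factors of the mesenchymal state were measured beside the adrenergic ones. Summed over the list of 21 genes they lay at 386 to 412 CPM with DMSO and 457 to 461 CPM with STM2457 in SK-N-BE2, and at 384 to 446 CPM and 519 to 576 CPM in NGP. TWIST1, ZEB1, ZEB2 and FOSL2 had the highest means of the list in each group and weigh most in these sums. TWIST1 rose in NGP from 124 to 216 CPM. ZEB2 (62.1 to 92.5 CPM) and FOSL2 (69.3 to 86.8 CPM) rose in SK-N-BE2. ZEB1 was called in neither line, nor were TWIST1 in SK-N-BE2 and ZEB2 and FOSL2 in NGP. The summed level of the 8 adrenergic factors was 1826 to 2314 CPM with DMSO and 2109 to 2424 CPM with STM2457 in SK-N-BE2, and 1608 to 2035 CPM and 1855 to 2458 CPM in NGP, so those groups overlapped. In SK-N-BE2, 6 of 17 mesenchymal factors tested were higher and 2 lower (26.9% and 27.8% of all genes). In NGP, 4 of 14 were higher and 1 lower (19.4% and 22.2%), with medians of 0.22 and 0.23. SNAI2, a repressor of epithelial genes, rose in NGP by 2.29 (4.38 to 21.9 CPM, edgeR adjusted p 0.000113), and SMAD3 rose there by 3.10. MAFF fell in SK-N-BE2 by 1.64 and WWTR1 rose by 0.55, from 3.34 to 5.03 CPM. IRF1 fell by 2.46 in SK-N-BE2 and by 2.74 in NGP, with 22.1% of its exon length shared with other genes. TWIST2 had no read in NGP.

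Of the Schwann cell precursor markers, 2 could be tested in each line: 1 was higher in SK-N-BE2 (ERBB3, 1.24 to 3.24 CPM) and 2 were lower in NGP (ERBB3, 1.10 to 0.315 CPM, and FOXD3, 1.78 to 0.428 CPM). Of the endothelial and immune markers, 5 were tested in SK-N-BE2, where PTPRC was higher and VWF and PECAM1 lower, each under 2 CPM in both groups. In NGP 1 was tested and was not called by edgeR. The part of these low levels in the responses of the 8 factors was not tested.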

How the data were processed

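The deposited values are counts of reads per gene, not normalized. Per the file headers, the authors made them with featureCounts 2.0.5 on exons of GENCODE 33 protein-coding genes, in paired mode and without a strand option; the submitters' processing notes list FastQC 0.11.5, Trimmomatic 0.36, HISAT2 2.1.0 and Subread 1.5.3. Both reads of a pair can be counted: 72.1% to 75.4% of counts from 1 to 20 were even in each library.

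Samples were grouped by their titles. Each line was fitted on its 6 libraries, and the difference between responses and between lines on all 12, with edgeR 4.0.16 in R 4.3.3: filterByExpr (minimum count 10), TMM, the quasi-likelihood test, Benjamini-Hochberg adjustment over all genes tested and a threshold of 0.05. The 8 factors passed the filter in every fit. Promoter and transcript sequences came from RefSeq (GRCh38.p14) and GENCODE 44, where 19033 of 19923 gene names were found.

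The factors and gene lists were chosen with earlier results of these data known. From each list, up to 3 called genes per line with at least 1 CPM in the higher group were named by size of change, and for each factor the 2 most similar genes of at least 10 CPM. Not every gene the rule picks is reported here. Alternatives were DESeq2 1.42.0 or its size factors, upper-quartile scaling, testing every gene with a read or those averaging 1 CPM, halved counts, a replicate block, a joint fit or DMSO libraries alone, and leaving out each library. Removal of GC trends in 20 bins was added after seeing the data. The fits were tested on simulated data.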

Additional observations from a re-analysis of the deposited data

Results flagged for a closer look

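The response of GATA2 to STM2457 differed between the lines: it was lower in SK-N-BE2 than in NGP (log2 difference -0.92, edgeR adjusted p 0.00117). NGP rose from 121 ± 14.9 to 269 ± 27.5 CPM (SD, n = 3), with 3 of 3 treated libraries above all controls, while in SK-N-BE2 2 of 3 were.

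The response of TFAP2B also differed, by 0.50 (edgeR adjusted p 0.0144), with the larger rise in SK-N-BE2. It went from 187 ± 24.2 to 441 ± 15.4 CPM there and from 57.2 ± 3.78 to 95.0 ± 5.77 CPM in NGP (SD, n = 3), with 3 of 3 treated libraries above all controls in both lines. Both differences were called under each of the 20 alternatives run for them. The lines were given different doses and fell into different groupings in the count headers, taken here as sequencing runs, and these cannot be told apart.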

How the results depend on the processing

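The 6 called responses of single factors, the 2 called differences between responses and the 7 called line differences kept their direction and call under every alternative run. Leaving out each library in turn gave 3 to 4 of the 8 factors called in SK-N-BE2, 3 to 5 in NGP, 2 to 5 for the difference between responses and 7 to 8 between the lines. The 5 in NGP and the 5 for the difference came without NGP DMSO replicate 1, and removal of GC trends gave 6 and 5. Over all genes tested, the fits as reported called 54.7% in SK-N-BE2, 41.7% in NGP, 30.9% for the difference and 71.1% between the lines. The shares under each alternative are not given here, so these counts are not read as particular to the factors. PHOX2A in SK-N-BE2, not called, changed sign: its log2 fold change was 0.15 with GC trends removed, and ran from -0.21 to 0.15 when 1 library was left out, positive without DMSO replicate 3 (0.15) or STM2457 replicate 2 (0.05). GATA2 in SK-N-BE2 was called with GC trends removed (0.28, edgeR adjusted p 0.00803) and HAND2 there without DMSO replicate 1 (-0.28, edgeR adjusted p 0.0392). The line difference of HAND2 was called in 6 of 21 alternatives and the INSM1 difference between responses in 7 of 20. Of 568 values for single factors under alternatives, 540 kept direction and side of the threshold, 25 became called, 3 changed sign and 0 lost a call. The cause of these changes was not tested.

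With the replicate block, 3 factors were called in SK-N-BE2, 3 in NGP, 2 for the difference and 7 between lines, as without it, and the block changed no call of a single factor. Over 9798 genes, deviations of same-numbered libraries correlated at -0.19, 0.12 and 0.04 in SK-N-BE2 and at -0.005, -0.25 and 0.16 in NGP. Between differently numbered libraries the lowest and highest values were -0.48 and 0.43 for SK-N-BE2, with -0.29 and 0.30 for NGP. Deviations from the mean of a group of 3 cancel out, which ties these values together. They cannot decide whether replicate numbers pair the samples. The 3 libraries per group limit the precision. Depth adds to this limit for INSM1 in SK-N-BE2, with 152 to 199 reads per library with STM2457, and little for the other factors.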
